A study of Homo sapiens with 8 samples.

Results

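H3K27me3 islands over 10 T-cell lineage genes were described in 2 human lymphoma B-cell lines. The genes were CD3E, CD3D, CD3G, CD4, CD8A, BCL11B, TCF7, CD28, CTLA4 and ICOS. They were chosen by name and placed by their hg19 spans, given to the nearest kb and extended by 5 kb on each side. The 3 CD3 genes share 1 span, so the 10 genes made 8 spans with a summed length of 385 kb. On these spans lay 17 of the 47432 islands of LY19Y646F and 17 of the 58144 islands of LY19WT. LY19Y646F expressed the EZH2-Y646F mutant constitutively from a CMV promoter, and LY19WT is labelled EZH2 wild type. Both lines are labelled untreated and were used at passages 10 to 15, and the labels do not say whether LY19Y646F is 1 clone or still makes its own EZH2. Chromatin was precipitated with an H3K27me3 antibody in 3 ChIP libraries per line and set against 1 input library per line. Islands had been called on merged ChIP libraries, so every value below is 1 value per line, replicate error is not known, and the lines are compared without a test. The files hold 1 histone mark and no expression, so B-cell identity was not checked by markers.

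H3K27me3 is written by EZH2, the catalytic subunit of Polycomb repressive complex 2, and marks genes held silent, often as broad domains. Y646F is a change in the catalytic SET domain of EZH2 that recurs in germinal-centre B-cell lymphoma and favours the step to trimethylation. B cells do not normally use the T-cell programme. CD3E, CD3D and CD3G are the signalling chains that accompany the T-cell receptor, CD4 and CD8A are coreceptors that bind MHC molecules, and CD28, CTLA4 and ICOS are related costimulatory or inhibitory receptors of T cells. BCL11B and TCF7 are transcription factors that set and maintain T-cell identity.

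Island coverage was lower in LY19Y646F than in LY19WT on 6 of the 8 spans, with CD4 and CD8A the other way. The 6 include the neighbours CD28, CTLA4 and ICOS. The share of tiles that are lower by any amount was not computed. Islands covered 107.8 kb of the 8 spans in LY19Y646F (28% of their length) and 186.8 kb in LY19WT (48.5%). Cover was lower in LY19Y646F over the genome as well. The whole lists covered 383.6 Mb in LY19Y646F and 554.6 Mb in LY19WT, and mean cover of autosomal 40 kb tiles was 13.7% and 19.8%. Median cover of a span was 25.1% in LY19Y646F and 48.6% in LY19WT, and the median of 69818 tiles of 40 kb over the autosomes was 0% in each line. An island was present on 8 of 8 spans in LY19Y646F and on 7 of 8 in LY19WT. Over the 40 kb tiles, 34.1% held an island in LY19Y646F and 40.9% in LY19WT. Over tiles of 100 kb, these shares were 45.0% in LY19Y646F and 50.1% in LY19WT. The share rose with tile length, and the spans ran from 16 to 112 kb, so no single tile size matches them. Coverage reached 50% on 1 span in LY19Y646F, CD4, and on 4 spans in LY19WT, CD28, CTLA4, ICOS and the CD3 block. Tiles of 40 kb covered to that extent made up 11.7% in LY19Y646F and 19.2% in LY19WT.

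The order of the genes by coverage differed between the lines. In LY19Y646F, CD4 stood highest at 82.9%, followed by ICOS at 49.1%, CTLA4 at 42.5% and CD28 at 32.6%. BCL11B, TCF7, the CD3 block and CD8A lay between 10% and 17.7% in that line. In LY19WT, CD28 and CTLA4 were covered to 100% and ICOS to 97.7%, ahead of the CD3 block at 65%, BCL11B at 32.1%, CD4 at 26.3% and TCF7 at 17.7%. CD8A held no LY19WT island. Coverage was at least 50 percentage points lower in LY19Y646F on 3 spans, CD28, CTLA4 and the CD3 block, against 10.7% of tiles. It was at least 50 points higher on 1 span, CD4, against 3.87% of tiles. CD28, CTLA4 and ICOS are neighbours on chromosome 2 and are not independent of each other. Joined into 1 stretch, they left 1 locus, the CD3 block, at least 50 points lower in LY19Y646F. The CD3 block itself differed by -33.3 points when the LY19WT list was cut to the covered length of LY19Y646F. With 20 kb added to the spans in place of 5 kb, CD28 and ICOS were at least 50 points lower, the CD3 block (-41.3) and CTLA4 (-34.3) were not, and 0 spans were at least 50 points higher.

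**Figure D1:**
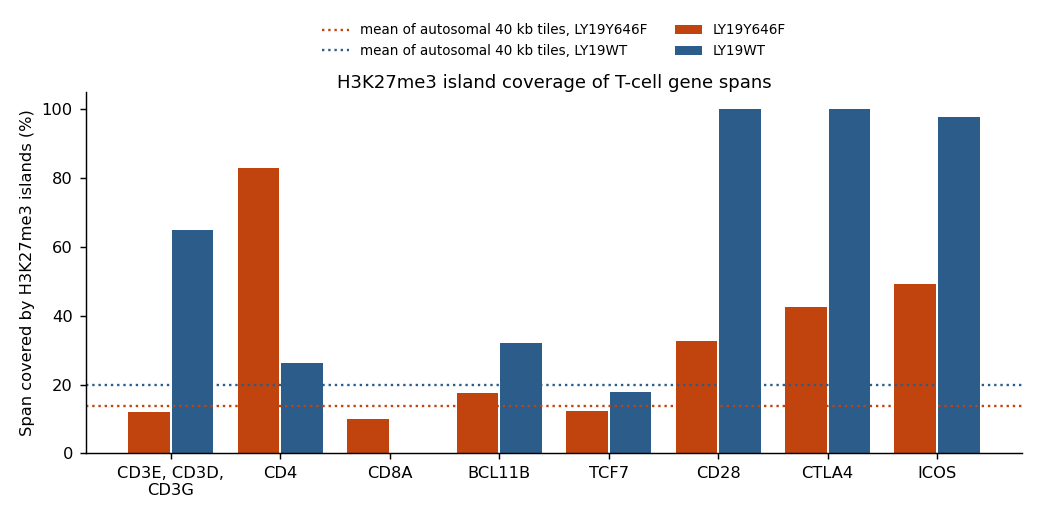
Share of each extended gene span covered by H3K27me3 islands (vertical axis, %) in LY19Y646F (left bars) and LY19WT (right bars), 1 merged list per line. Dotted lines give the mean over autosomal tiles of 40 kb, 13.7% in LY19Y646F and 19.8% in LY19WT. CD4 is covered to 82.9% in LY19Y646F and 26.3% in LY19WT, and the 3 genes from CD28 to ICOS to at most 49.1% in LY19Y646F and at least 97.7% in LY19WT.

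RefSeq promoter sequences on GRCh38.p14 were found for 7 of the 10 genes, CD3D, CD8A, BCL11B, TCF7, CD28, CTLA4 and ICOS. For the last 6 the strand was combined with the rounded hg19 span to place 1 start per gene, at the end of the span, to within 0.5 kb. CD8A and TCF7 have more than 1 RefSeq start, and their other starts were not placed. In LY19Y646F an island overlapped 1 of these 6 starts, CTLA4, against 15.1% of autosomal tiles of 1 kb. In LY19WT an island overlapped 3 of 6, CD28, CTLA4 and ICOS, against 21.5% of such tiles. These 3 starts lie in 1 stretch of chromosome 2 that is 88.3% covered in LY19WT, so they are not independent. The tiles include sequence between genes and are not a share of gene starts. The nearest LY19Y646F island lay 5.80 kb from the CD28 start and 10.2 kb from the ICOS start. At BCL11B the nearest island was 9.80 kb from the start in LY19Y646F and 1.40 kb in LY19WT. At TCF7 it was 1.40 kb away in LY19Y646F and 1.20 kb in LY19WT, so the placed start lay between islands in both lines.

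The sequences around 5 of these starts are shown for their CG content, first the 3 inside LY19WT islands, then CD8A and BCL11B, whose placed starts lay in no island of either line. Each runs 5′ to 3′ on the strand of its gene from 250 bases before to 50 after the start, from RefSeq on GRCh38.p14, with every CG dinucleotide in capitals. CD8A has several RefSeq starts, and the outermost is shown.
CD28 (chr2:203706389-203706688, plus strand): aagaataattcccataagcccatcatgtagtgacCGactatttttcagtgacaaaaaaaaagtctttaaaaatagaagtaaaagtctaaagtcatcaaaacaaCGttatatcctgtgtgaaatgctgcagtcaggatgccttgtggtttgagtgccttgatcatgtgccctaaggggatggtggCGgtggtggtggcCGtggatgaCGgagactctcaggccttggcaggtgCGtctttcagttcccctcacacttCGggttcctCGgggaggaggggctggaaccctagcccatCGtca
CTLA4 (chr2:203867521-203867820, plus strand): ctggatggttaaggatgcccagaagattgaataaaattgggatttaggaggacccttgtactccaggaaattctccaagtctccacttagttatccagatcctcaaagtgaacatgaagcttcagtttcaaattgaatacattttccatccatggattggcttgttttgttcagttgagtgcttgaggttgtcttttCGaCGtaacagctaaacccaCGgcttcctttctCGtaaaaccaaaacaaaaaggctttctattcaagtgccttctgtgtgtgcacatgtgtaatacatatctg
ICOS (chr2:203936513-203936812, plus strand): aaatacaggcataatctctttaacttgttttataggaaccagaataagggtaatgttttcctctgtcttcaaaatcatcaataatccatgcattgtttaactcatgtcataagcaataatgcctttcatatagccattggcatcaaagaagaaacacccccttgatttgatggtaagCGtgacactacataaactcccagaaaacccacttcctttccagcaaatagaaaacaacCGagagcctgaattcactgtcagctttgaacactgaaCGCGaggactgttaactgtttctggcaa
CD8A (chr2:86808347-86808646, minus strand): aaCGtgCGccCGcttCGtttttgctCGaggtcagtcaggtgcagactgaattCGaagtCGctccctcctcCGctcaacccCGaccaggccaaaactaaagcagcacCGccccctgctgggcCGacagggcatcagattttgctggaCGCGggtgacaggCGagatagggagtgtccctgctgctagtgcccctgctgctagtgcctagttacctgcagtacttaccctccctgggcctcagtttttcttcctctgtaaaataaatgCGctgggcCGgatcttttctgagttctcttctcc
BCL11B (chr14:99272148-99272447, minus strand): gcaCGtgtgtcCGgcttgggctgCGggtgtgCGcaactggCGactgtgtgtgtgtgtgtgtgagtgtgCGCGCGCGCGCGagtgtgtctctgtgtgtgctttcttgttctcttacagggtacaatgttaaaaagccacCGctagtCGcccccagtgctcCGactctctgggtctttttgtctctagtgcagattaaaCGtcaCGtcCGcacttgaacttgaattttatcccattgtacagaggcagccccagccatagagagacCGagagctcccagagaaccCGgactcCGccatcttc

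The CG dinucleotide, which reads the same on both strands, is the site of DNA methylation and is dense in CpG islands. It occurred 9 times in the CD28 window and 4 times each in those of CTLA4 and ICOS, below the median of 14 over 35116 RefSeq promoters of this length. The CD8A window above held 16 and the BCL11B window 20. At least 1 CG was present in 96.0% of all promoters. Of the windows not printed, CD3D held 5, the other CD8A starts held 18, 6 and 25, and the TCF7 starts held 25 and 3. The counts of the starts inside LY19WT islands thus overlapped with those of CD8A, whose span held no LY19WT island. GC content was 48.3% for CD28, 40.3% for CTLA4 and 38.3% for ICOS, and 57% for the printed CD8A window and 55.7% for BCL11B, against a median of 58.7% over all promoters. This is a description of base composition, which also affects how readily reads are recovered from a region, and its part in the island calls was not tested.

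The CD3 genes, which encode the invariant signalling chains of the T-cell receptor complex, were covered by separate islands in LY19WT, next to a broad domain that ended near the beginning of their span, and by little in LY19Y646F. In the RefSeq gene order CD3E comes first, then CD3D and CD3G. On the 60 kb span at chromosome 11 from 118170001 to 118230000 (hg19), LY19Y646F had 2 islands that covered 7.2 kb. The first, from 118168801 to 118173400, held 212 ChIP and 57 input reads and ended before the gene span began. The second, from 118217001 to 118220800, held 188 ChIP and 39 input reads. LY19WT had 5 islands that covered 39 kb. The first ran for 105.6 kb from 118070601 to 118176200 and reached just past the beginning of the gene span, with 10737 ChIP and 891 input reads. The other 4 lay inside the gene span, were 5.8 to 10.6 kb wide and held 334 to 812 ChIP reads each. Both LY19Y646F islands lay wholly inside LY19WT islands.

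The authors' fold, the ChIP over input count divided by 1 constant per list, was 1.42 and 1.84 for the 2 LY19Y646F islands of the CD3 block, and 2.17 to 3.92 for the 5 LY19WT islands. The first LY19Y646F island, at 1.42, exceeded only 6.99% of its list and had an input density 1.47 times the autosomal median of the line. The 105.6 kb LY19WT island exceeded 97.7% of its list in fold and ranked 120 by width. Summed over whole islands, enrichment was 1.59 in LY19Y646F (95% interval 1.27 to 2.01) and 3.65 in LY19WT (3.44 to 3.88). These intervals are exact Clopper-Pearson intervals of ChIP among ChIP and input reads and hold counting error only, and reads are not independent molecules. The intervals of these sums did not overlap, but 10737 of the 12993 LY19WT ChIP reads came from the 105.6 kb island. Of that island, 6.2 kb lay inside the extended span. For single islands, the fold interval of the first LY19Y646F island ended at 1.94, below that of the 105.6 kb LY19WT island, from 3.66. The interval of the second LY19Y646F island ended at 2.67. It overlapped that of every LY19WT island inside the gene span, and these began at 1.61 to 2.51. In such bulk libraries the share of cells that carry the mark and its amount per cell cannot be told apart.

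CD4, the coreceptor of helper T cells, was the gene most covered in LY19Y646F. Its 41 kb span, on chromosome 12 from 6894001 to 6935000, held 4 LY19Y646F islands over 34 kb, from a 22.8 kb island at 6889201 to 6912000 through islands at 6915001 to 6920400 and 6921201 to 6927400 to one at 6928401 to 6932800. They held 1704 ChIP and 329 input reads in all, with folds from 1.73 to 2.33. LY19WT had 2 islands over 10.8 kb. One of 4.6 kb, from 6901801 to 6906400, held 210 ChIP and 28 input reads and lay wholly inside the widest LY19Y646F island. The other, from 6928801 to 6944200, held 1402 ChIP and 126 input reads at a fold of 3.62 and ran past the far end of the gene. Enrichment over whole islands was 1.98 in LY19Y646F (1.76 to 2.23) and 3.41 in LY19WT (2.89 to 4.05). LY19Y646F thus had the wider cover, and LY19WT the higher enrichment summed over whole islands. In LY19WT 1402 of the 1612 ChIP reads came from the second island, of which 6.2 kb lay inside the span. Fold intervals overlapped in both pairs of overlapping islands. They were 1.70 to 2.32 in LY19Y646F and 1.64 to 3.76 in LY19WT, then 1.57 to 3.58 and 3.02 to 4.38. With ChIP reads per kb scaled to each line's total ChIP reads in islands, CD4 was higher in LY19Y646F (log2 ratio 0.23). That scale favours the list with the shorter cover of the genome, here LY19Y646F. Of the tiles, 3.45% were covered as much as CD4 or more in LY19Y646F and 28.0% in LY19WT. The wide cover of CD4 did not extend far, since the 100 kb on each side were covered to 18.2% in LY19Y646F and 10.9% in LY19WT.

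CD8A, a chain of the coreceptor of cytotoxic T cells, held a single island in LY19Y646F and none in LY19WT. The island, on chromosome 2 from 87018801 to 87022200, measured 3.4 kb and covered 10% of the 34 kb span. It held 140 ChIP and 17 input reads, a fold of 3.14 (1.89 to 5.55), which exceeded 97.4% of its list. Its input density was 0.594 times the autosomal median of LY19Y646F, and a low input count raises the fold. The nearest LY19Y646F island beyond the span lay 2.6 kb away, at 87043601 to 87050600. In LY19WT the nearest islands lay 427.6 kb before and 435.6 kb after the span. Islands covered 13.5% of the 100 kb flanks in LY19Y646F and 0% in LY19WT, and 27.9% of the 1 Mb flanks in LY19Y646F and 6.92% in LY19WT. The absence of LY19WT islands was thus not limited to the CD8A gene, and the mark may be present there at a level too low for an island to be called.

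CD28, the main costimulatory receptor of T cells, lay wholly inside a broad LY19WT domain, nearer its high-coordinate end. A single LY19WT island of 89.2 kb, from 204525201 to 204614400 on chromosome 2, spanned the gene and both flanks with 8904 ChIP and 741 input reads. LY19Y646F had 2 islands on the 43 kb span, from 204576801 to 204585200 with 344 ChIP and 68 input reads and from 204592801 to 204598400 with 231 ChIP and 55 input reads. Together they covered 14 kb inside the gene body and left the start uncovered. Enrichment over whole islands was 1.78 in LY19Y646F (1.47 to 2.19) and 3.91 in LY19WT (3.63 to 4.22). Of the 89.2 kb LY19WT island, 43 kb lay inside the span.

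CTLA4, an inhibitory receptor that competes with CD28 for its ligands, was also inside a single LY19WT island. That island, from 204650801 to 204744000, was 93.2 kb wide, ranked 175 by width in its list and held 7115 ChIP and 783 input reads. The LY19Y646F island on CTLA4, from 204727401 to 204734800, was 7.4 kb wide and held 321 ChIP and 61 input reads. It covered the start and the first part of the gene, and 42.5% of the 16 kb span. Enrichment over whole islands was 2.01 in LY19Y646F (1.52 to 2.69) and 2.96 in LY19WT (2.75 to 3.19). Of the 93.2 kb LY19WT island, 16 kb lay inside the span, so most of its reads may come from outside CTLA4.

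ICOS, an inducible costimulator of helper T cells, had a cover of 49.1% in LY19Y646F and 97.7% in LY19WT. LY19Y646F had 3 islands on its 35 kb span, all in the later part of the gene and beyond it, starting at 204811201, 204819801 and 204828201, with 272, 254 and 571 ChIP reads. LY19WT had 2 islands, from 204794401 to 204807400 over the start and from 204808201 to 204850400 over the rest, with 779 and 2902 ChIP reads. Enrichment over whole islands was 1.89 in LY19Y646F (1.64 to 2.20) and 2.60 in LY19WT (2.36 to 2.88). Of the second LY19WT island, 22.8 of 42.2 kb lay inside the span, and of the third LY19Y646F island 2.8 of 13.6 kb.

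From the CD28 span to the ICOS span, over 265 kb, LY19Y646F had 17 islands and LY19WT had 12. They covered 45.2% of the stretch in LY19Y646F and 88.3% in LY19WT. The widest island measured 18.8 kb in LY19Y646F and 93.2 kb in LY19WT. Of the length covered in LY19Y646F, 96.2% was also covered in LY19WT, while 49.2% of the LY19WT length was covered in LY19Y646F. Both shares stood near the cover of the stretch in the other line, 88.3% in LY19WT and 45.2% in LY19Y646F. Enrichment over the stretch was 1.75 in LY19Y646F (1.64 to 1.86) and 3.15 in LY19WT (3.02 to 3.28). The joined stretch follows from the order of the spans, and its values were described after those of the single genes had been seen.

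**Figure D2:**
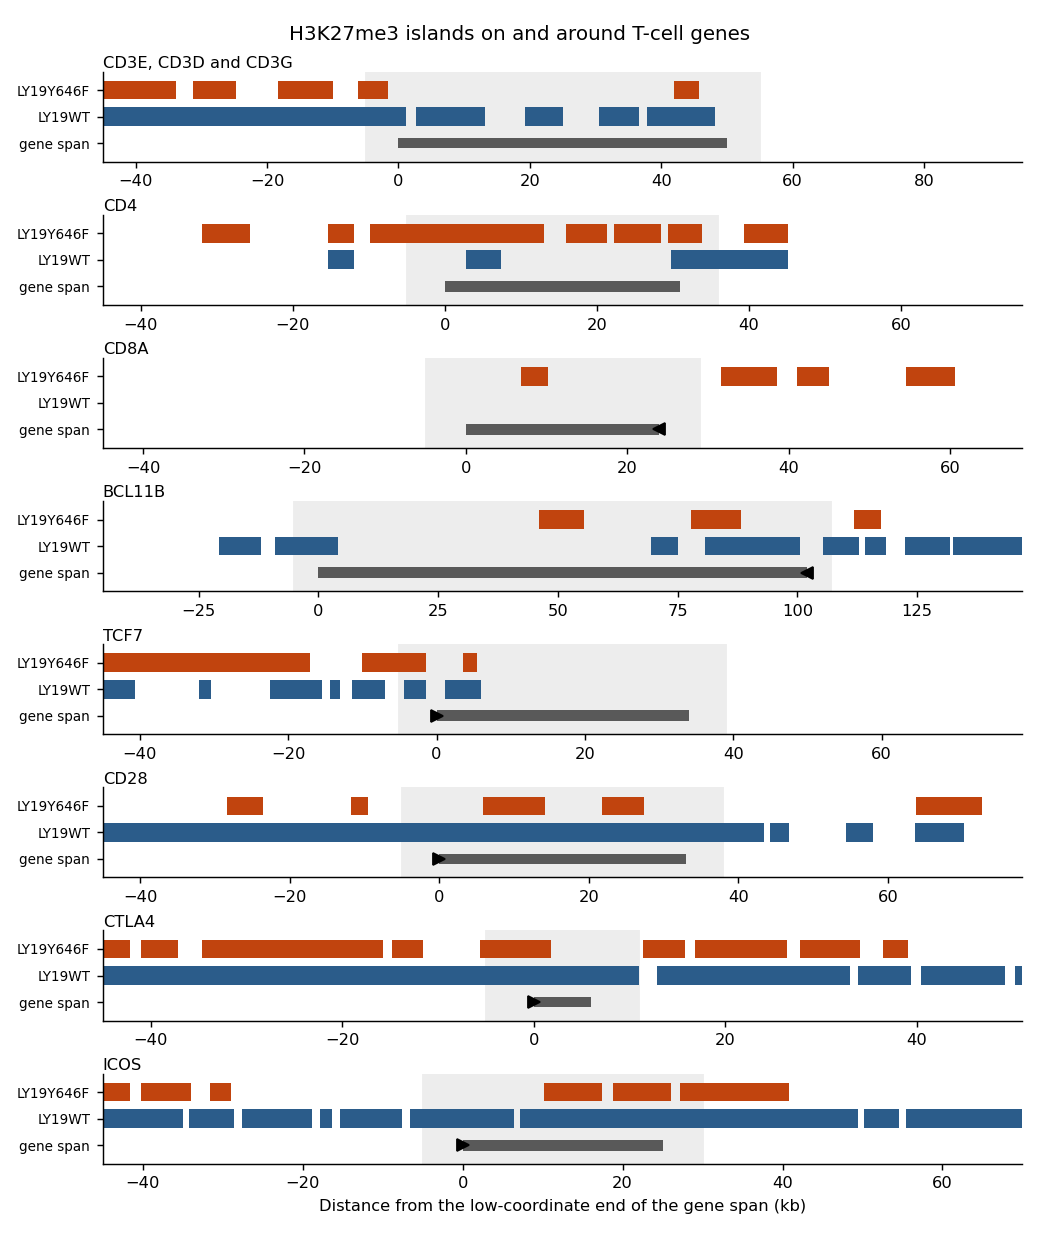
Islands of LY19Y646F (upper track) and LY19WT (lower track) on each gene span and 40 kb beyond the extended span, by distance in kb from the low-coordinate end of the gene span. Grey bars are the gene spans, pale bands the spans with 5 kb added, and arrowheads the 6 starts that could be placed, pointing in the direction of transcription. CD28 and CTLA4 each lie under 1 LY19WT island of 89.2 and 93.2 kb and under separate LY19Y646F islands of at most 8.4 kb.

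BCL11B, a zinc-finger factor required for T-cell commitment, held separate islands in both lines that mostly lay at different places. On its 112 kb span, on chromosome 14 from 99631001 to 99743000, LY19Y646F had 2 islands over 19.8 kb and LY19WT had 4 over 36 kb. Those of LY19Y646F ran from 99682001 to 99691400 with 341 ChIP and 61 input reads and from 99713801 to 99724200 with 375 ChIP and 43 input reads. The widest LY19WT island ran for 19.8 kb from 99716801 to 99736600, with 1351 ChIP and 142 input reads, and ended 1.40 kb short of the rounded start. Another LY19WT island, from 99627001 to 99640000, lay at the far end of the gene, where LY19Y646F had none. A LY19WT island from 99741401 to 99748800, upstream of the start, had a fold of 4.02, the highest on any of the 8 spans. The lines shared 7.4 kb, or 37.4% of the LY19Y646F and 20.6% of the LY19WT covered length.

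Enrichment at BCL11B was 2.63 in LY19Y646F (2.14 to 3.26) and 2.84 in LY19WT (2.55 to 3.17), with overlapping intervals. Input around this gene was low in LY19Y646F. Over islands within 5 Mb, the median input density was 0.767 times the autosomal median in LY19Y646F and 0.980 times in LY19WT. The second LY19Y646F island had a fold of 3.33 at an input density 0.491 times that median, the lowest of the islands on the spans. Cover was sparse on the whole of chromosome 14 in that line, at 3.25% against 16.7% in LY19WT. The 1 Mb flanks of BCL11B were covered to 4.21% in LY19Y646F and 27.9% in LY19WT. The part of low input in the lower cover of BCL11B was not tested. For the other 7 spans the local input density ran from 0.978 to 1.08 in LY19Y646F and from 0.958 to 1.09 in LY19WT.

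TCF7, which encodes the T-cell factor TCF-1 downstream of Notch and WNT signalling, had the smallest difference between the lines. On its 44 kb span, on chromosome 5 from 133445001 to 133489000, islands covered 5.4 kb in LY19Y646F and 7.8 kb in LY19WT, and 4.8 kb were shared. In LY19Y646F the islands ran from 133440001 to 133448600 with 427 ChIP and 51 input reads, and from 133453601 to 133455400 with 99 ChIP and 12 input reads. In LY19WT they ran from 133445601 to 133448600 with 181 ChIP and 28 input reads, and from 133451201 to 133456000 with 488 ChIP and 41 input reads. In both lines 1 island thus ended before the placed start, at the same position, 1 lay shortly after it, and the rest of the gene body held none. Enrichment was 3.19 in LY19Y646F (2.45 to 4.21) and 3.16 in LY19WT (2.46 to 4.10). The folds of the 2 islands were 3.20 (2.39 to 4.36) and 3.15 (1.72 to 6.30) in LY19Y646F. In LY19WT they were 2.10 (1.41 to 3.25) and 3.87 (2.81 to 5.47). The intervals overlapped within each line. Overlap of intervals does not decide whether counting error leaves the order of 2 folds open, and that order was not tested.

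Across the spans, LY19Y646F islands were narrower and mostly lower in fold. The 17 LY19Y646F islands had a median width of 7.2 kb, from 1.8 to 22.8 kb, and the 17 LY19WT islands one of 10.6 kb, from 3 to 105.6 kb. The median over each whole list was 5.8 kb. The median fold on the spans was 2.01 in LY19Y646F and 2.87 in LY19WT, beside 1.90 over the whole LY19Y646F list and 2.28 over that of LY19WT. In 13 pairs of islands that overlapped on a span, the fold was lower in LY19Y646F in 11 and higher in 2, 1 each at BCL11B and TCF7. The pairs hold 13 LY19Y646F and 10 LY19WT islands, since broad LY19WT islands at CD28 and ICOS were paired more than once. Over all 32200 overlapping pairs of the 2 lists, the fold was lower in LY19Y646F in 75%. On the LY19Y646F side, 13 of 17 islands met one of LY19WT and 9 lay wholly inside one, against 56.5% and 25.4% of the whole LY19Y646F list. On the LY19WT side, 11 of 17 met any LY19Y646F island, 1 of them outside the spans, and 2 lay wholly inside one, against 39.1% and 11.6% of the whole LY19WT list. The 4 LY19Y646F islands with no LY19WT counterpart were 2 at CD4, 1 at CD8A and 1 at BCL11B. Folds of narrow islands rest on few input reads, and the 2 widest intervals belonged to LY19Y646F islands, at TCF7 with 12 input reads (1.72 to 6.30) and at CD8A with 17 (1.89 to 5.55).

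The direction of the difference in level depended on the scale. Over the 7 spans with islands in both lines, the median log2 of LY19Y646F over LY19WT was -0.56 for ChIP over input divided by the list constant, with 6 spans lower and 1 higher. It was 0.23 when ChIP reads per kb were divided by the total ChIP reads in islands of each line, with 1 lower, CD28, and 6 higher. That total was 17410034 reads in LY19Y646F and 37556030 in LY19WT. On this second scale the value of a whole list depends only on its covered length, 383.6 Mb in LY19Y646F and 554.6 Mb in LY19WT. The whole LY19Y646F list is thus higher on it by construction, and the sign at these spans does not show a higher level. ChIP reads per kb of island, unscaled, ran from 36.2 to 50.6 in LY19Y646F and from 66.7 to 99.8 in LY19WT over these 7 spans. No spike-in or other external scale was used here, so the level of the mark itself was not compared.

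**Figure D3:**
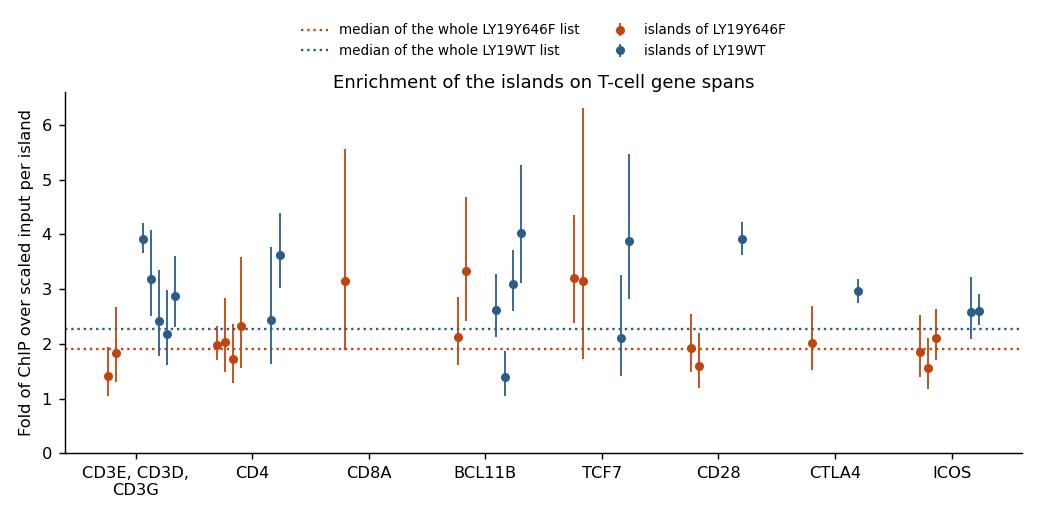
Fold of ChIP over scaled input (vertical axis, the authors' fold) of each island on the 8 spans, LY19Y646F left and LY19WT right within each span. Bars are exact 95% intervals of counting error and dotted lines the medians of the whole lists, 1.90 in LY19Y646F and 2.28 in LY19WT. LY19Y646F islands of the CD3 block and of CD28 to ICOS lie between 1.42 and 2.12, and LY19WT islands there between 2.17 and 3.92.

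The surroundings of the genes differed in the same direction at some loci and not at others. On the 100 kb flanks of the CD3 block, cover was 14.2% in LY19Y646F and 49.7% in LY19WT, but on the 1 Mb flanks it was 41.6% in LY19Y646F and 51.8% in LY19WT. Around CD28 the 1 Mb flanks were covered to 13.8% in LY19Y646F and 45.0% in LY19WT, with like values around CTLA4 and ICOS, whose flanks overlap. Around TCF7 the order turned, since the 100 kb flanks were covered to 47% in LY19Y646F and 15.8% in LY19WT, while cover of the span was 12.3% in LY19Y646F and 17.7% in LY19WT. Around CD4 the 1 Mb flanks were covered to 32.9% in LY19Y646F and 43.5% in LY19WT, opposite in order to the CD4 span. The cover of CD4 in LY19Y646F stood 64.7 points above that of its 100 kb flanks, the widest such gap among the 8 spans in that line.

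**Figure D4:**
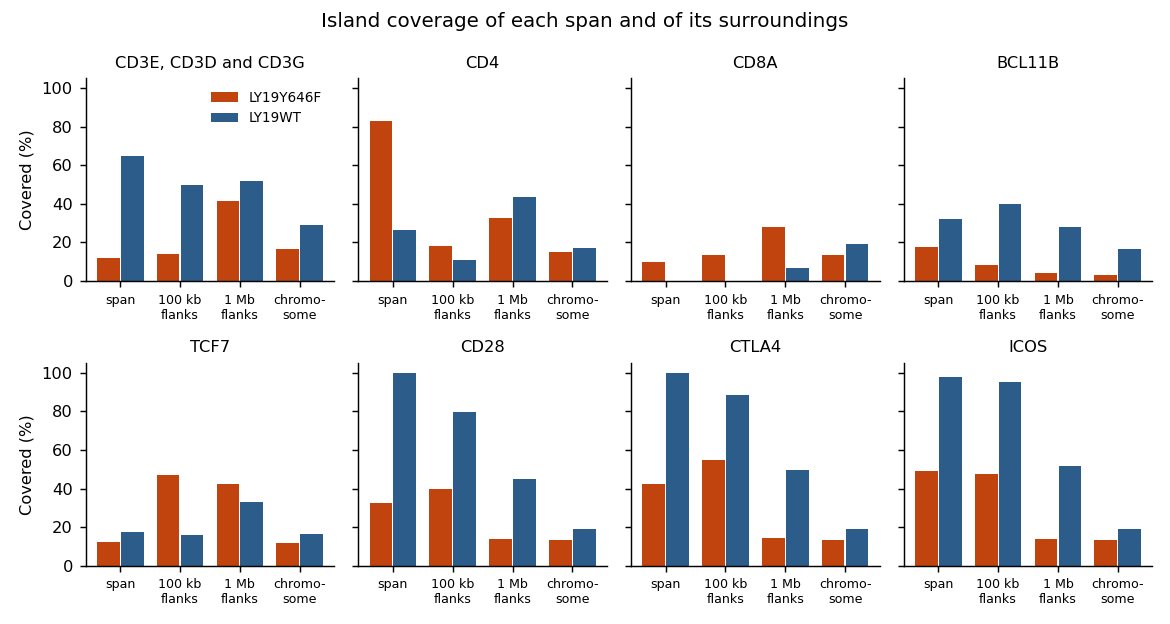
Share covered by islands (vertical axis, %) of each extended span, of 100 kb and of 1 Mb on each side of it and of its chromosome, LY19Y646F left and LY19WT right. At CD4 the LY19Y646F bar of the span, 82.9%, stands above that of the 100 kb flanks, 18.2%, whereas at CD28, CTLA4 and ICOS the LY19WT bars of span and 100 kb flanks are all at least 79.6%.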

How the data were processed

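H3K27me3 islands of LY19Y646F and LY19WT were analysed as deposited. The submitters' processing notes name build hg19 and the tools SICER, bedtools, SAMtools 1.3.1 and Bowtie2 2.2.9. Per the labels, islands were called on merged replicates against input at an FDR of 0.001. Per the file headers, the deposited columns give raw ChIP and input read counts, a p-value, an FDR and a fold, a linear ratio whose constant, recovered from the values, was 2.62 in LY19Y646F and 3.07 in LY19WT. The files give no library totals. Calling depends on depth, and depths could not be made equal.

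Coordinates are 1-based hg19. Spans came from the rule in the opening, overlap meant at least 1 bp, and islands reaching past a span were clipped for cover but counted whole for reads. The 10 genes and all lists were chosen with earlier results of these data known. All 10 genes are named, and promoters were printed for placed starts inside an island in either line and for the first 2 genes whose placed start lay in none. Other T-cell genes had no hg19 annotation here and were not analysed. Starts of CD3E, CD3D, CD3G and CD4 were not placed. Python 3.11.15, numpy 2.4.6, pandas 2.3.3, scipy 1.17.1 and matplotlib 3.10.9 were used, and the steps were tested on simulated lists. Alternatives were other span extensions, FDR limits of 1e-05 and 1e-10, joined islands, a LY19WT list shortened to the LY19Y646F length by dropping its islands of highest p-value and, among ties, lowest fold, other tile sizes and other scalings.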

Additional observations from a re-analysis of the deposited data

How the results depend on the processing

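No paired analysis was possible because the replicates of each line had been merged, and for the same reason no replicate could be left out. Of 48 differences in cover (8 spans under 6 alternatives), 47 kept their direction. With the LY19WT list cut to the LY19Y646F length, TCF7 turned to 1.36 points higher in LY19Y646F, LY19WT cover of the spans was 42.0%, the CD3 block fell out of the spans covered to 50% in LY19WT (45.3%, leaving 3) and of those 50 points lower (-33.3, leaving 2), and the tiles with a LY19WT island and those 50 points lower in LY19Y646F made up 27.0% and 6.67%. Limits of FDR removed islands on the spans only at 1e-10, 1 per line, at the CD3 block in LY19Y646F and at BCL11B in LY19WT, with no count moved. With 0 kb added, 2 LY19Y646F spans reached 50% and LY19WT cover was 45.0%. With 20 kb added, cover was 30.3% in LY19Y646F and 52.0% in LY19WT, 2 LY19Y646F spans reached 50%, 0 were 50 points higher and 2 were 50 points lower, CD28 and ICOS (-51.1), without the CD3 block (-41.3) and CTLA4 (-34.3). With islands joined across 5 kb, cover was 31.2% in LY19Y646F and 51.5% in LY19WT, and 2 LY19Y646F spans reached 50%. Within 2.5 kb of a start, islands lay at 2 starts in LY19Y646F and 5 in LY19WT. The shares of 1 kb tiles given for the starts do not apply to this wider window, and no matching share was computed.

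Scaled by total ChIP reads in islands, the median log2 ratio was 0.23, and CD3 (0.13), CD4 (0.23), BCL11B (0.15), CTLA4 (0.29) and ICOS (0.34) turned higher in LY19Y646F. On that scale the whole LY19Y646F list, with its shorter cover, is higher by construction. Without the library ratio TCF7 turned lower, at -0.22. In alternatives added after seeing the data, joining CD28 to ICOS gave cover of 34.1% in LY19Y646F and 58.9% in LY19WT, with 2 LY19WT loci at 50% and 1 locus 50 points lower. Leaving out BCL11B gave 32.2% in LY19Y646F and 55.2% in LY19WT. No cause of any difference was tested. Merged lists give no replicate error, and depth limits which islands were called.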
